A study of Mus musculus with 9 samples.

Results

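The aryl hydrocarbon receptor (AhR) and nuclear factor erythroid 2-related factor 2 (Nrf2) run the main xenobiotic and oxidative stress responses of skin, and 10 genes of these pathways were followed in mouse keratinocytes over the first weeks after birth. The genes were chosen by symbol from the deposited gene table, which holds 24532 genes: Ahr, Ahrr, Cyp1a1, Cyp1b1 and Tiparp of the AhR pathway, and Nfe2l2, Nqo1, Hmox1, Gclc and Gclm of the Nrf2 pathway. Cells came from the skin of C57BL/6 mice on postnatal day 1, day 7 and day 14, with 3 libraries for each day. No genotype other than the strain, no agent and no treatment was recorded for any group, and the 3 days therefore differ in age as far as the labels say. Viable cells lacking the leukocyte antigen CD45.2 were sorted. That gate removes leukocytes and dead cells but picks no keratinocyte marker, so it can hold melanocytes, fibroblasts and other cells of skin. No label ties the 3 libraries of an age to separate animals, so p-values reflect only how much these libraries vary, and that variation may be technical.

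AhR is a basic helix-loop-helix PAS protein that waits in the cytoplasm with chaperones, enters the nucleus when it binds a ligand, pairs with Arnt and switches on genes such as the cytochrome P450 genes Cyp1a1 and Cyp1b1. In skin it senses pollutants, microbial pigments and photoproducts of tryptophan, and it takes part in barrier formation. Its own targets Ahrr and Tiparp act back on it, Ahrr by competing for Arnt and Tiparp by attaching ADP-ribose to the receptor. Nrf2, the product of Nfe2l2, is held and degraded through Keap1 until oxidants or electrophiles release it. It then pairs with small Maf proteins and induces enzymes of quinone reduction (Nqo1), heme breakdown (Hmox1) and glutathione synthesis (Gclc and Gclm).

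Promoter windows from RefSeq (build GRCm38.p6, from 250 bases before to 50 bases after an annotated start) were matched for 7 of the 10 genes. They were searched on both strands for the core letters of the AhR response element, GCGTG, and for the antioxidant response element bound by Nrf2, TGACNNNGC. The core GCGTG stood in 5 of the 7 windows and in 32.4% of all 32851 windows of this length, and TGACNNNGC stood in 2 of the 7 and in 12.4% of all. The longer AhR element TNGCGTG, which contains the core, stood in 1 of the 7 windows and in 5.07% of all. The windows of 4 genes are shown because their genes rose most steadily, fell, or were barely detected: Tiparp (chr3:65528197-65528496, plus strand), Nfe2l2 (chr2:75704614-75704913, minus strand), Gclm (chr3:122245307-122245606, plus strand) and Ahrr (chr13:74292282-74292581, minus strand). Each is written 5′ to 3′ along its gene, with GCGTG or TGACNNNGC in capitals, or their reverse complement where the match lies on the other strand.
Tiparp: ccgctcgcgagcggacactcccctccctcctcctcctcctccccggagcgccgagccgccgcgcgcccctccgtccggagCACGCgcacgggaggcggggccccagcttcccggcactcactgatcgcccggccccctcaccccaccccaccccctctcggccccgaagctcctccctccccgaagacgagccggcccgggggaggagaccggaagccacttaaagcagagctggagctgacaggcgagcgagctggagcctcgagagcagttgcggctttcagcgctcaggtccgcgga
Nfe2l2: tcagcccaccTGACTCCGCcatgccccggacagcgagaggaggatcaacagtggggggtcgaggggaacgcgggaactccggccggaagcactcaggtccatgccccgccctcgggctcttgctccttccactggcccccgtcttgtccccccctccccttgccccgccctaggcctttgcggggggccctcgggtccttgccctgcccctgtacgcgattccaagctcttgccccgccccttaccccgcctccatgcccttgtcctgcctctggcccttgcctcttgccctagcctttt
Gclm: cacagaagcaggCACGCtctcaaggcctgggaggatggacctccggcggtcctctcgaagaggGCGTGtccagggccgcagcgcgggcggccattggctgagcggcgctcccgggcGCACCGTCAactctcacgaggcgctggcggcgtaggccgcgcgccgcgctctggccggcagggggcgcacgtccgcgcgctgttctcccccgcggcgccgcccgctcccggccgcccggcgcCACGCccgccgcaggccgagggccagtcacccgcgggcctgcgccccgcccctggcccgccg
Ahrr: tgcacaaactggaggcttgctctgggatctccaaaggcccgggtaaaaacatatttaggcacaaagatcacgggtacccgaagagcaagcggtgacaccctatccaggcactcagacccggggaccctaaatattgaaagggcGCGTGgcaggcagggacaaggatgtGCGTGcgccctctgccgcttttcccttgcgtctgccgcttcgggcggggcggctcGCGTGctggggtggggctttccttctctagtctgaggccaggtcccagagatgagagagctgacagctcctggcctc
Ahrr had 3 core matches, beginning at positions -107, -82 and -27 from the start, and the last of them was also its match to the longer element. Tiparp had 1 core match, at -170. Nfe2l2 had 1 antioxidant element, at -240. Gclm had 3 core matches, at -238, -187 and -12, and 1 antioxidant element, at -134. The Gclm window was the richest in G and C of the 7 (79.7%), and the Nqo1 window, at 53.7%, held neither motif. These matches describe letters in a short window and not binding.

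Total counts ran between 50670191 and 62970768 per library. The 6 keratinocyte markers (Krt5, Krt14, Krt1, Krt10, Trp63 and Dsp) summed to between 47080 and 53420 CPM (counts relative to library size, after TMM scaling) on day 1, 48690 to 51330 on day 7 and 38320 to 40140 on day 14. Single markers split. At day 14 versus day 1, 2 were called higher (Trp63 and Dsp) and 3 lower (Krt5, Krt14 and Krt1). Of all genes 35.5% were higher and 38.4% lower. The 6 melanocyte markers summed to 358.2 to 387 CPM on day 1, 101 to 122 on day 7 and 4.04 to 8.62 on day 14. Each was called lower in both steps, against 24% of all genes in the first step and 35.1% in the second. Xist, the RNA of the inactive X chromosome, was at 0 counts in all 3 day 7 libraries, and the Y-linked gene Ddx3y was at 0 counts in all 3 day 14 libraries, while day 1 libraries held both. Sex-linked transcripts therefore differed together with age in each comparison, and the headers of the day 7 libraries are written in another style, so these differences cannot be told apart from age. In bulk RNA of this kind, fewer cells of a type and less RNA per cell cannot be told apart either.

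All 10 genes passed the filter on low counts and were tested with edgeR's quasi-likelihood test, with Benjamini-Hochberg adjustment over 14507 genes and a threshold of 0.05. Much of the transcriptome moved, so single calls stand against a high background. At day 7 versus day 1, 6 of the 10 genes were higher and 0 lower, against 25.5% and 24% of all genes tested. At day 14 versus day 7, 5 were higher and 1 lower, against 32.5% and 35.1%. At day 14 versus day 1, 7 were higher and 1 lower, against 35.5% and 38.4%. In either direction 49.4%, 67.6% and 73.9% of all genes were called in the 3 comparisons. Of the 10, 3 genes, Ahr, Nfe2l2 and Tiparp, rose in both steps, as did 12.3% of all genes. A test for any difference over the 3 days was passed by 8 of the 10, all but Ahrr and Cyp1b1, and by 82.1% of all genes. Libraries of the 2 days did not overlap for 7 genes, all higher, at day 7 versus day 1 (30.4% of all genes higher, 30% lower and 60.3% in either direction). They did not overlap for 5 higher and 1 lower at day 14 versus day 7 (35.3%, 37.4% and 72.7%), and for 7 higher and 1 lower at day 14 versus day 1 (36.9%, 40.5% and 77.3%). The second step minus the first, a test of whether the weeks differ, was positive for 1 of the 10 and negative for 2, against 24.2% and 27.6% of all genes (51.8% in either direction). With library totals alone in place of TMM factors the median log2 change of all genes moved to -0.1, -0.21 and -0.319 in the 3 comparisons, against -0.001, -0.035 and -0.046 with TMM. Under those totals 35.7%, 34.9% and 31.9% of the called genes were higher, against 3695 of 7171, 4713 of 9808 and 5150 of 10716 with TMM.

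**Figure D1:**
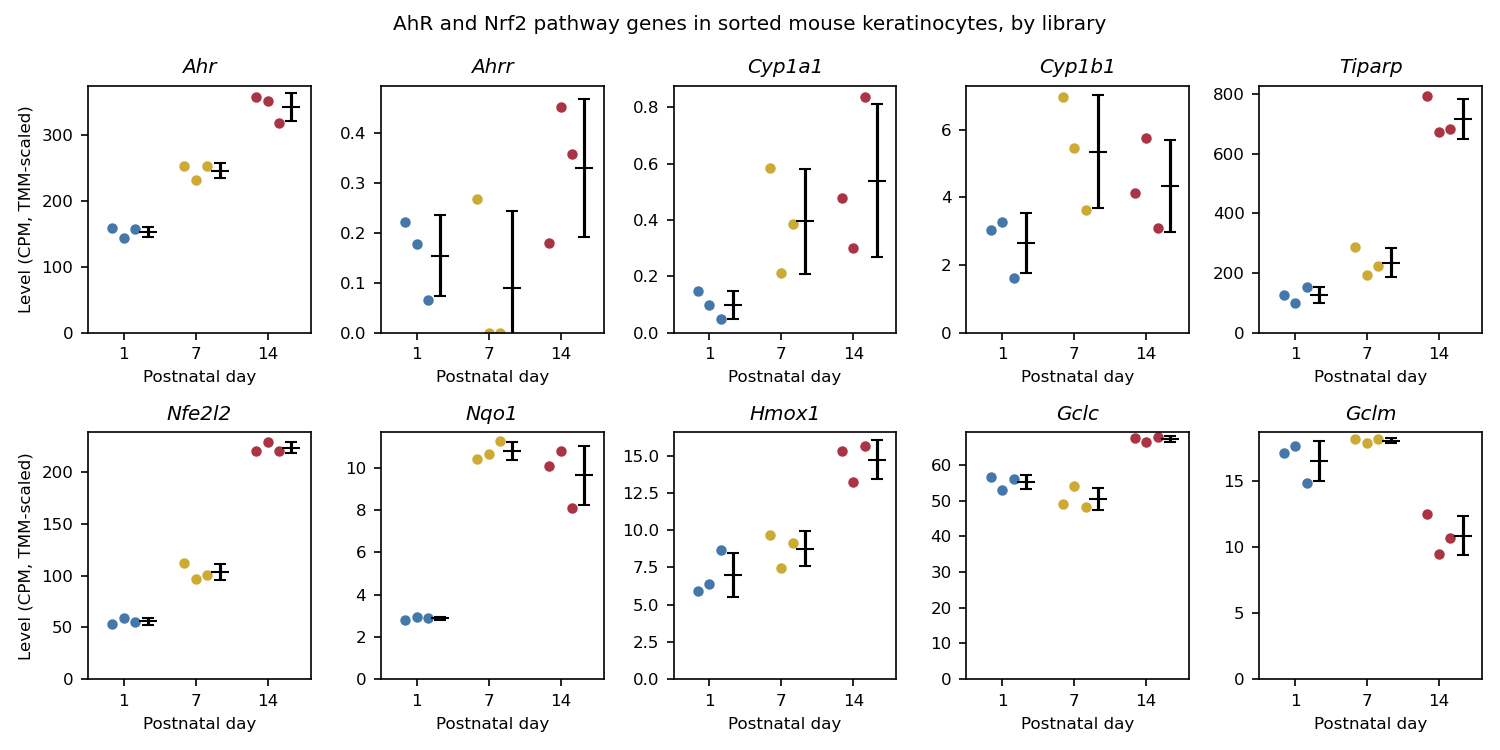
Levels in CPM on TMM-scaled libraries (vertical axes, linear and separate for each gene) at postnatal days 1, 7 and 14, with 1 point per library and mean ± SD (n = 3) in black beside them; the day 7 error bar of Ahrr is cut at 0. Tiparp, Nfe2l2 and Ahr climb at both steps, Nqo1 climbs to day 7, and Gclm is lowest at day 14.

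The receptor gene Ahr (gene 11622, mm10 chromosome 12, 35497979 to 35534989) rose at each step, with no overlap between libraries of different days. It stood at 159, 144 and 157 CPM in the day 1 libraries, at 253, 233 and 253 CPM at day 7 and at 359, 352 and 319.6 CPM at day 14. Its log2 fold change was 0.68 ± 0.06 (SE) at day 7 versus day 1 (adjusted p = 1.47e-06) and 0.48 ± 0.06 at day 14 versus day 7 (adjusted p = 1.42e-05). The whole interval amounted to 2.24-fold (log2 fold change 1.16 ± 0.06, adjusted p = 3.03e-09). That size was unremarkable among all genes tested, 73.2% of which had a smaller or equal absolute change over the same interval. The second step minus the first was -0.20 ± 0.10, which did not pass the test (adjusted p = 0.107) except with library totals alone (-0.279, adjusted p = 0.0317).

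Langerhans cells also express Ahr, and markers of these cells were higher at later ages. The 5 listed summed to 1.78 to 2.86 CPM on day 1, 3.95 to 5.12 on day 7 and 26.9 to 27.7 on day 14. Of the 4 that could be tested, 3 were higher at day 7 than at day 1 (25.5% of all genes) and 4 at day 14 than at day 7 (32.5%). Cd207, the gene of the Langerhans receptor langerin, was at 0 in all day 1 libraries and between 0.677 and 1.28 CPM at day 14. Counts of Ptprc, which encodes CD45, reached 9 at most. The part of these cells in the Ahr values was not tested.

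Arnt, the obligate dimer partner of AhR, was at 83.1 ± 3.69 CPM on day 1, 80.5 ± 3.36 on day 7 and 77.2 ± 2.03 on day 14 and passed no test (adjusted p = 0.459, 0.282 and 0.0628 for day 7 versus day 1, day 14 versus day 7 and day 14 versus day 1). In CPM per kilobase of annotated exon, the ratio of Arnt to Ahr was 0.417 ± 0.0149 on day 1, 0.252 ± 0.0163 on day 7 and 0.173 ± 0.0155 on day 14, with no overlap between days. A two-sided exact permutation test of 3 libraries against 3 cannot give a p under 0.1, and each of the 3 pairs of days gave 0.1. Of 6 listed genes of the receptor complex, Arnt included, 1 was higher and 2 lower at day 14 than at day 1. Of all genes 35.5% were higher and 38.4% lower. The 2 lower were Ptges3 and Arnt2. Ptges3, the p23 cochaperone of the receptor complex, was at 130.5 ± 5.94 CPM at day 14 and 142 ± 4.50 CPM at day 1 (log2 fold change -0.12 ± 0.05, adjusted p = 0.0404). Arnt2 was at 0.293 ± 0.0313 CPM at day 14 and 5.41 ± 0.106 CPM at day 1 (-4.20 ± 0.19).

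Tiparp (gene 99929, chromosome 3, 65528447 to 65555518), which encodes the AhR-induced ADP-ribosyltransferase PARP7, showed the largest log2 change of the 10 genes at day 14 versus day 1 (2.49 ± 0.21, followed by Cyp1a1 at 2.42 ± 0.61). Its libraries read 126, 101 and 154 CPM on day 1, 288, 194 and 223 CPM on day 7 and 793, 673 and 683 CPM on day 14. No library overlapped with one of another day, although library 1 of day 7 stood well above the other 2 of its day. Day 7 exceeded day 1 by 0.89 ± 0.20 on the log2 scale (adjusted p = 0.00893) and day 14 exceeded day 7 by 1.61 ± 0.20 (adjusted p = 0.000306). Over the whole interval Tiparp rose 5.63-fold (adjusted p = 2.37e-05), and 89.8% of genes tested had a smaller or equal absolute change. The second step was larger than the first by 0.72 ± 0.35, which did not pass the test (adjusted p = 0.125) except without library 1 of day 7 (1.05, adjusted p = 0.0407). The ratio of Tiparp to Ahr in CPM per kilobase was 1.17 ± 0.204 on day 1, 1.35 ± 0.231 on day 7 and 2.95 ± 0.223 on day 14, with days 7 and 1 overlapping.

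Tiparp is also induced by many stimuli other than AhR ligands, and the sum of genes that respond to tissue handling moved with it. A list of 12 immediate early and heat shock genes summed to 18140 to 22450 CPM on day 1, 22800 to 27780 on day 7 and 36350 to 39920 on day 14. Of these genes 4 were higher and 0 lower at day 7 than at day 1, against 25.5% and 24% of all genes. At day 14 versus day 7, 9 were higher and 2 lower, against 32.5% and 35.1%. The library with the highest Tiparp had also the highest sum at day 1 (library 6) and at day 7 (library 1), but not at day 14. Hspa1a and Hspa1b, the inducible Hsp70 genes, were the 2 that were lower at day 14. The part of handling in the Tiparp values was not tested.

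Ahrr, Cyp1a1 and Cyp1b1, the targets most used as signs of an active receptor, were scarce. Ahrr (gene 11624, chromosome 13, 74211118 to 74292331), the AhR repressor, had 15, 11 and 4 counts on day 1, 17, 0 and 0 on day 7 and 9, 24 and 18 on day 14. The libraries of the 3 days overlapped, and the 0 counts allow up to 0.0489 and 0.058 CPM in libraries 2 and 3 of day 7 (3 counts each, counting error only). No comparison passed the test (adjusted p = 0.604, 0.134 and 0.318 for day 7 versus day 1, day 14 versus day 7 and day 14 versus day 1). At so few counts a difference was not detectable, save that day 14 versus day 7 passed without library 1 of day 7 (adjusted p = 0.00194) and with limma-voom (adjusted p = 0.0153), and that day 7 versus day 1 passed downwards without library 1 of day 7 (adjusted p = 0.0123).

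Cyp1a1 (gene 13076, chromosome 9, 57687928 to 57703824), the P450 that AhR ligands induce most strongly, stayed below 1 CPM in every library. Its counts were 10, 6 and 3 on day 1, 37, 13 and 20 on day 7 and 24, 16 and 42 on day 14. Day 7 exceeded day 1 by 1.98 ± 0.62 on the log2 scale (adjusted p = 0.0184) and day 14 exceeded day 1 by 2.42 ± 0.61 (adjusted p = 0.00329), with no overlap between libraries in either pair. Days 14 and 7 overlapped (0.44 ± 0.54, adjusted p = 0.481). The rise to day 7 lost its call without library 5 or 6 of day 1 or library 1 of day 7 (adjusted p from 0.0533 to 0.0871, and 0.00822 at the lowest over the alternatives), whereas the rise to day 14 kept it under every alternative tried.

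Cyp1b1 (gene 13078, chromosome 17, 79706940 to 79715061), a related P450 that oxidises polycyclic hydrocarbons and is also made by stromal cells, varied widely within each day. It was at 3.05, 3.28 and 1.63 CPM on day 1, 6.96, 5.46 and 3.62 CPM on day 7 and 4.13, 5.77 and 3.08 CPM on day 14. Day 7 exceeded day 1 by 1.01 ± 0.34 on the log2 scale (adjusted p = 0.032), a call that ended without library 4 or 6 of day 1, library 1 or 2 of day 7 or library 4 of day 14 (adjusted p from 0.051 to 0.1, and 0.00344 at the lowest). The second step minus the first was -1.32 ± 0.56 (adjusted p = 0.077), and it passed with DESeq2 (adjusted p = 0.034), without library 3 of day 7 (adjusted p = 0.0318) and without library 5 of day 14 (adjusted p = 0.0387). Neither day 14 versus day 7 (-0.31 ± 0.33, adjusted p = 0.433) nor day 14 versus day 1 (0.71 ± 0.34, adjusted p = 0.0855) passed. Day 14 versus day 1 passed with DESeq2 (adjusted p = 0.0281), without library 6 of day 14 (adjusted p = 0.0483) and with library numbers as a replicate block (adjusted p = 0.00597). The sum of the 6 fibroblast markers moved the other way between days 1 and 7, at 17.2 to 61.6 CPM at day 7 and 122 to 225 CPM at day 1. Dcn alone was at 79.6 to 133 CPM at day 1. Of the 6, 2 were called lower (Dcn and Col1a2), against 24% of all genes. The part of fibroblasts in the Cyp1b1 values was not tested.

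Other genes that AhR is known to induce split. Of 8 listed, 7 could be tested. At day 7 versus day 1, 5 were higher and 1 lower, at day 14 versus day 7, 4 were higher and 3 lower, and at day 14 versus day 1, 3 were higher and 2 lower. Of all genes 25.5% were higher and 24% lower in the first of these comparisons, 32.5% and 35.1% in the second and 35.5% and 38.4% in the last. Serpinb2, a serpin of stressed and differentiating keratinocytes, reached 1375 ± 175 CPM at day 14, against 32.1 ± 5.95 CPM at day 1 (log2 fold change 5.42 ± 0.17). Aldh3a1, an aldehyde dehydrogenase, reached 89.8 ± 9.41 CPM at day 14, against 3.85 ± 0.746 CPM at day 1 (4.54 ± 0.29). Cyp2s1, an extrahepatic P450, rose to 15.4 ± 0.764 CPM at day 14, against 7.56 ± 0.389 CPM at day 1 (1.03 ± 0.08). The glucuronosyltransferase genes Ugt1a6a (28.5 ± 2.44 CPM at day 14 and 39.0 ± 0.694 CPM at day 1) and Ugt1a7c (10.3 ± 1.69 and 13.9 ± 1.47 CPM) were lower. The Ugt1a genes share their last exons, so their single values are uncertain.

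**Figure D2:**
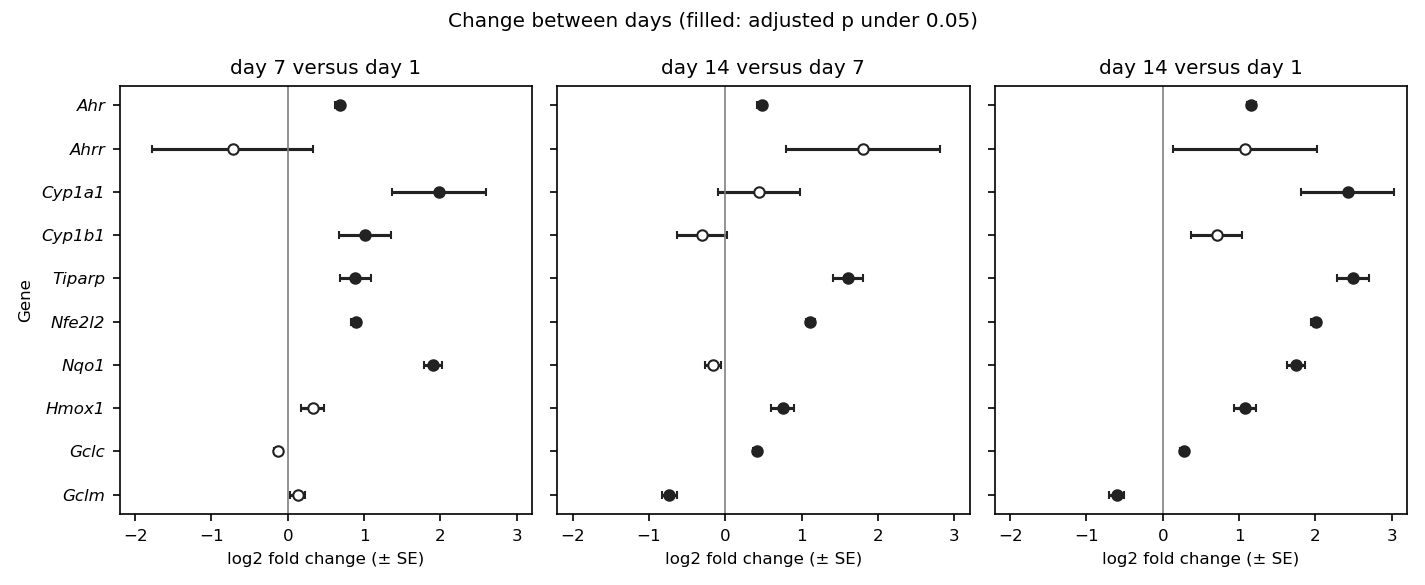
Log2 fold change ± SE (horizontal axis) of each gene in the 3 comparisons of days, later over earlier; filled points have an adjusted p under 0.05. Ahr, Nfe2l2 and Tiparp lie right of 0 with filled points in each panel, and Gclm lies left of 0 in the comparisons with day 14.

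Nfe2l2 (gene 18024, chromosome 2, 75675513 to 75704663), the Nrf2 gene, rose in both weeks. It read 53.2, 58.9 and 54.9 CPM on day 1, 112, 96.8 and 101 CPM on day 7 and 220.4, 229 and 221 CPM on day 14. The 3 days formed separate bands. The log2 fold change was 0.89 ± 0.06 at day 7 versus day 1 (adjusted p = 1.66e-07) and 1.11 ± 0.06 at day 14 versus day 7 (adjusted p = 1.08e-08), and the whole rise was 4.02-fold (2.01 ± 0.06, adjusted p = 3.41e-11). The difference of the 2 steps (0.22 ± 0.10) did not pass the test (adjusted p = 0.0847).

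Genes that control Nrf2 moved unevenly. Of 13 regulators and dimer partners, 4 were higher and 2 lower at day 7 than at day 1, 7 higher and 3 lower at day 14 than at day 7, and 6 higher and 4 lower at day 14 than at day 1, with a median log2 change of 0.11 over the whole interval against -0.046 for all genes. Of all genes 25.5% were higher and 24% lower in the first comparison, 32.5% and 35.1% in the second and 35.5% and 38.4% in the last. Keap1, the sensor that marks Nrf2 for degradation, was at 60.4 ± 1.82 CPM at day 14, against 86.9 ± 4.23 CPM at day 7 (log2 fold change -0.52 ± 0.06) and 80.1 ± 6.23 CPM at day 1. The small Maf gene Mafk was at 509 ± 18.1 CPM at day 14 and 73.7 ± 6.76 CPM at day 1 (2.79 ± 0.09). Sqstm1, whose product p62 draws Keap1 away, was at 317 ± 12.2 CPM at day 14 and 95.9 ± 6.83 CPM at day 1 (1.73 ± 0.07). Nfe2l1, which encodes the related factor Nrf1, was at 628 ± 21.9 and 182 ± 8.84 CPM on the same days (1.79 ± 0.05). Bach1, a repressor that competes with Nrf2 for the same DNA element, rose as well, to 142 ± 11.5 CPM at day 14, against 79.1 ± 7.10 CPM at day 1 (0.84 ± 0.07), while its relative Bach2 fell to 11.1 ± 1.83 CPM, against 27.1 ± 3.16 CPM at day 1 (-1.28 ± 0.12).

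The ratio of Nfe2l2 to Keap1 in CPM per kilobase was 0.861 ± 0.0381 on day 1, 1.47 ± 0.123 on day 7 and 4.58 ± 0.246 on day 14. The lowest day 14 library (4.42) was far above the highest day 7 library (1.56). For this ratio each pair of days gave 0.1 in the exact two-sided permutation test, the smallest value it allows.

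**Figure D3:**
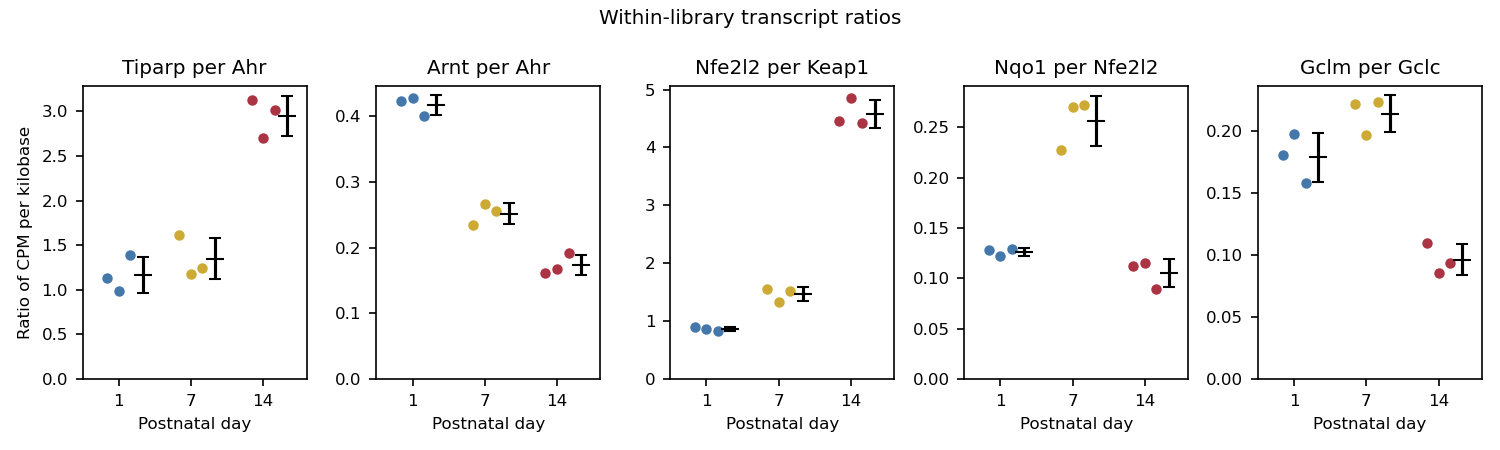
Ratios of CPM per kilobase within each library (vertical axes, from 0) at postnatal days 1, 7 and 14, with 1 point per library and mean ± SD (n = 3) in black. The ratio of Nfe2l2 to Keap1 climbs to between 4.42 and 4.86 at day 14, and that of Gclm to Gclc is between 0.0854 and 0.11 there.

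Nfe2l2 was called higher in both steps, and its targets Nqo1, Hmox1, Gclc and Gclm were not. That call was made for 12.3% of all genes, so none among so few genes is near that share. Nqo1 (gene 18104, chromosome 8, 107388225 to 107403205), a quinone reductase that both pathways induce, made its whole rise in the first week. It was at 2.80, 2.94 and 2.90 CPM on day 1, 10.4, 10.7 and 11.3 CPM on day 7 and 10.1, 10.8 and 8.10 CPM on day 14. The day 1 libraries lay within a narrow range below all others, and the day 7 and day 14 libraries overlapped. The log2 fold change was 1.90 ± 0.12 at day 7 versus day 1 (3.74-fold, adjusted p = 8.01e-08) and -0.16 ± 0.11 at day 14 versus day 7 (adjusted p = 0.214). Its second step minus its first was -2.06 ± 0.19 on the log2 scale (adjusted p = 4.32e-06). The ratio of Nqo1 to Nfe2l2 in CPM per kilobase was 0.126 ± 0.00379 on day 1, 0.257 ± 0.0248 on day 7 and 0.106 ± 0.0138 on day 14.

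Hmox1 (gene 15368, chromosome 8, 75093618 to 75100593), which encodes the heme-degrading enzyme heme oxygenase 1 and responds to Nrf2, heme and heat, rose in the second week. Its libraries were at 5.93, 6.35 and 8.66 CPM on day 1, 9.68, 7.45 and 9.11 CPM on day 7 and 15.3, 13.2 and 15.6 CPM on day 14. Days 1 and 7 overlapped, and day 14 lay above both. Day 14 exceeded day 7 by 0.75 ± 0.14 on the log2 scale (adjusted p = 0.000671), and day 7 exceeded day 1 by 0.33 ± 0.15, which did not pass (adjusted p = 0.0858). That first step passed without library 6 of day 1 (adjusted p = 0.00766) or library 2 of day 7 (adjusted p = 0.0378), and the difference of the steps did not pass (0.42 ± 0.25, adjusted p = 0.183). The 5 erythroid markers summed to 0.244 to 1.61 CPM on day 1, 11.7 to 41.5 on day 7 and 1.83 to 5.43 on day 14. Of the 3 tested, 2 were higher at day 7 than at day 1 (25.5% of all genes) and 2 lower at day 14 than at day 7 (35.1%). The macrophage gene Cd68 was at 7.85 to 9.83 CPM at day 14 and 2.65 to 2.86 CPM at day 7, within a list of 6 leukocyte markers that summed to 14.0 to 14.8 CPM at day 14 and 3.38 to 3.85 CPM at day 7, 5 of the 5 tested being higher (32.5% of all genes). The part of red cells or leukocytes in the Hmox1 values was not tested.

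The paired subunits of glutamate-cysteine ligase, the enzyme of the first step of glutathione synthesis, parted in the second week. Gclc (gene 14629, chromosome 9, 77754535 to 77794489), the catalytic subunit, was at 56.7, 53.2 and 56.2 CPM on day 1, 49.0, 54.2 and 48.3 CPM on day 7 and 67.6, 66.5 and 68.0 CPM on day 14. Day 14 lay above both earlier days without overlap. Day 14 exceeded day 7 by 0.42 ± 0.05 on the log2 scale (adjusted p = 1.85e-05), while its change before that, -0.13 ± 0.05 at day 7 versus day 1, missed the threshold (adjusted p = 0.0526) and passed it under 6 of the 16 alternatives. Day 14 versus day 1 came to 0.28 ± 0.05 (adjusted p = 0.000325), a call that ended with library totals alone (0.01, adjusted p = 0.868, where the median of all genes was -0.319).

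Gclm (gene 14630, chromosome 3, 122245487 to 122267215), the modifier subunit that makes the enzyme more efficient, was the only one of the 10 genes called lower in any pair of days with edgeR, TMM factors and all 9 libraries. It was at 17.1, 17.6 and 14.8 CPM on day 1, 18.1, 17.8 and 18.1 CPM on day 7 and 12.4, 9.48 and 10.6 CPM on day 14. The day 14 libraries lay below all others. The log2 fold change was -0.73 ± 0.10 at day 14 versus day 7 (adjusted p = 3.49e-05), -0.61 ± 0.10 at day 14 versus day 1 (adjusted p = 0.000127) and 0.13 ± 0.10 at day 7 versus day 1 (adjusted p = 0.301). The steps of the subunits differed in opposite directions, the second minus the first being 0.55 ± 0.09 for Gclc (adjusted p = 0.00038) and -0.86 ± 0.17 for Gclm (adjusted p = 0.00109). The ratio of Gclm to Gclc in CPM per kilobase was 0.179 ± 0.0201 on day 1, 0.214 ± 0.015 on day 7 and 0.0963 ± 0.0125 on day 14. Day 14 did not overlap with day 7 or with day 1 (exact two-sided permutation p = 0.1 for each, the smallest possible), whereas days 7 and 1 overlapped (exact permutation p = 0.2).

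Levels of different genes were set side by side in CPM per kilobase of merged annotated exon, a scale that understates genes whose annotated exons exceed the transcripts present. The order of genes on this scale differs in part from that by the deposited length-scaled values (TPM). At day 1 the order was Tiparp (29.2 ± 6.16), Ahr (24.9 ± 1.28), Gclc (14.7 ± 0.506), Nfe2l2 (14.7 ± 0.777), Hmox1 (3.99 ± 0.838), Gclm (2.62 ± 0.239), Nqo1 (1.85 ± 0.0489), Cyp1b1 (0.454 ± 0.153), Cyp1a1 (0.0351 ± 0.0178) and Ahrr (0.0164 ± 0.00855). Tiparp and Ahr overlapped there, as did Gclc and Nfe2l2, and Cyp1a1 and Ahrr. At day 7 the order was Tiparp (54 ± 11), Ahr (40 ± 1.92), Nfe2l2 (27.2 ± 2.03), Gclc (13.4 ± 0.847), Nqo1 (6.95 ± 0.275), Hmox1 (5 ± 0.661), Gclm (2.87 ± 0.0263), Cyp1b1 (0.916 ± 0.287), Cyp1a1 (0.141 ± 0.0668) and Ahrr (0.00948 ± 0.0164), and no neighbours in it overlapped. At day 14 the order was Tiparp (164 ± 15.3), Nfe2l2 (58.9 ± 1.36), Ahr (55.7 ± 3.39), Gclc (17.9 ± 0.204), Hmox1 (8.4 ± 0.747), Nqo1 (6.22 ± 0.897), Gclm (1.72 ± 0.237), Cyp1b1 (0.741 ± 0.232), Cyp1a1 (0.193 ± 0.0976) and Ahrr (0.035 ± 0.0147). Only Nfe2l2 and Ahr overlapped at day 14. On this scale Nfe2l2 thus lay beside Gclc at day 1 and beside Ahr at day 14, and Nqo1 lay below Gclm at day 1 and above it on both later days.

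The genes with profiles nearest to Ahr and to Nfe2l2 were looked up, so their differences are small by selection. Likeness was taken as the root mean square difference between mean-centred log2 CPM profiles over the 9 libraries, searched among 9151 genes of at least 10 CPM. Nearest to Ahr were Birc3, an inhibitor of apoptosis (0.057), Clic1, a chloride channel protein (0.064), and Fxyd3, an ion pump regulator (0.065). Nearest to Nfe2l2 were Epn3, an endocytic adaptor (0.084), Mid1ip1, a regulator of lipid synthesis (0.098), and Npc1, a cholesterol transporter (0.103). Birc3 was at 19.6 ± 1.92 CPM on day 1, 32.6 ± 1.08 on day 7 and 46.3 ± 2.41 on day 14. Epn3 was at 27.2 ± 1.5 CPM on day 1, 47.3 ± 0.755 on day 7 and 108 ± 4.2 on day 14. Among the 10 genes themselves the closest pair was Ahr and Hmox1 (0.227), followed by Tiparp and Nfe2l2 (0.315).

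Other genes of the AhR and Nrf2 pathways went in both directions. Over all 9 lists, which hold 100 genes and were written with earlier results of these data known, 97 genes were tested. At day 7 versus day 1, 37 were higher and 12 lower (median log2 change 0.12), at day 14 versus day 7, 29 were higher and 36 lower (median -0.06), and at day 14 versus day 1, 37 were higher and 34 lower (median 0.02). The medians of all genes tested were -0.001, -0.035 and -0.046, and the shares of all genes called higher and lower were 25.5% and 24%, 32.5% and 35.1%, and 35.5% and 38.4%. The counts at day 14 versus day 7 and at day 14 versus day 1 lie near those shares, which also stand as the background to each list below.

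**Figure D4:**
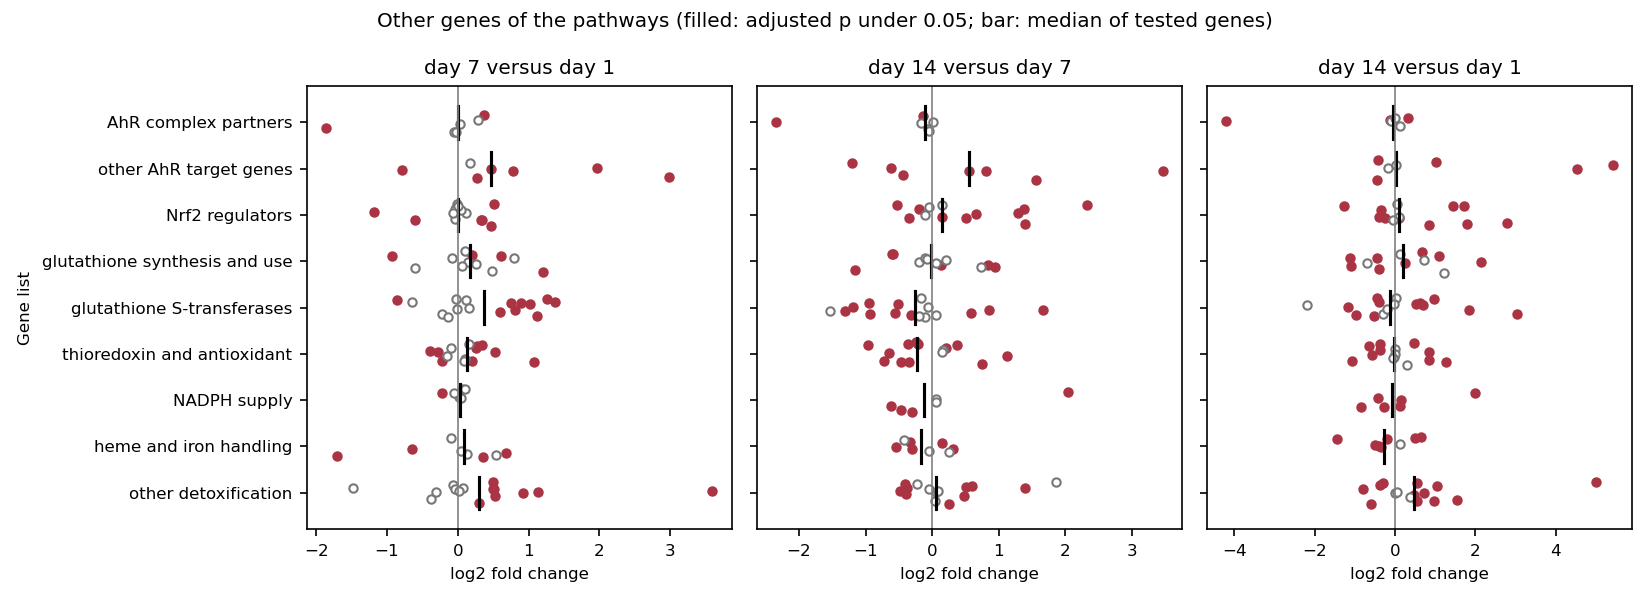
Log2 fold change (horizontal axes, later over earlier day) of each tested gene in the 9 pathway lists, in the 3 comparisons; filled points have an adjusted p under 0.05 and bars mark list medians. The glutathione S-transferase median is 0.38 at day 7 versus day 1 and -0.26 at day 14 versus day 7.

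Glutathione S-transferase genes, whose products couple glutathione to electrophiles, had 8 of 16 higher and 1 lower at day 7 than at day 1 (25.5% and 24% of all genes), 3 higher and 7 lower at day 14 than at day 7 (32.5% and 35.1%), and 6 higher and 5 lower at day 14 than at day 1 (35.5% and 38.4%). Gstt3 rose throughout, to 29.4 ± 2.32 CPM at day 14, against 8.21 ± 0.247 CPM at day 1, and Gstm5 was at 16.2 ± 3.4 and 8.23 ± 0.823 CPM on those days. Gstm1 was at 40.7 ± 2.89 CPM on day 1, 82.5 ± 1.44 on day 7 and 66.1 ± 5.13 on day 14. Gstp1, also made in many epithelia, was at 27.8 ± 1.5 CPM at day 14 and 40 ± 2.46 CPM at day 1. Gstm2 was at 87.5 ± 4.57, 148 ± 3.85 and 64.5 ± 2.40 CPM. These families hold near-identical copies, so reads may have been split between members.

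Of 12 genes of glutathione synthesis and use, 3 were higher and 1 lower at day 7 than at day 1, 3 were higher and 3 lower at day 14 than at day 7, and 4 were higher and 4 lower at day 14 than at day 1. Glrx, glutaredoxin, was at 4.74 ± 0.43 CPM at day 14, against 10.5 ± 0.634 CPM at day 7 (log2 fold change -1.15 ± 0.12). Gss, the synthase that acts after glutamate-cysteine ligase, was at 23.5 ± 1.07 CPM at day 14, against 35.3 ± 0.384 CPM at day 7 (log2 fold change -0.59 ± 0.06, adjusted p = 3.52e-06) and 31.9 ± 1.97 CPM at day 1 (-0.44 ± 0.06). Gsr, the reductase that regenerates glutathione, was at 41.1 ± 3.71 CPM at day 14, against 62.6 ± 4.37 CPM at day 7 (-0.61 ± 0.07) and 54.6 ± 1.19 CPM at day 1 (-0.41 ± 0.07). Ggct, a cyclotransferase of glutathione breakdown, rose to 34.6 ± 2.26 CPM at day 14, against 18 ± 1.59 CPM at day 7 (0.94 ± 0.10). Slc3a2, a subunit of the cystine importer, rose to 264 ± 42.5 CPM at day 14, against 148 ± 25.5 CPM at day 7 (0.83 ± 0.19). Slc7a11, the other subunit of that importer, did not rise with it. It was at 1.07 ± 0.279 CPM on day 1, 0.559 ± 0.117 on day 7 and 0.49 ± 0.078 on day 14. Slc7a11 was called lower at day 7 than at day 1 (adjusted p = 0.032). Oplah, which returns the product of Ggct to glutamate, was at 139.5 ± 4.48 CPM on day 1, 213 ± 11.1 on day 7 and 221 ± 20.7 on day 14, and day 14 versus day 7 did not pass the test (0.05 ± 0.06, adjusted p = 0.503). Of 14 thioredoxin, peroxiredoxin and antioxidant enzyme genes, 6 were higher and 3 lower at day 7 than at day 1, 4 were higher and 8 lower at day 14 than at day 7, and 4 were higher and 5 lower at day 14 than at day 1. Prdx5, a peroxiredoxin, was at 111 ± 9.5 CPM at day 14 and 66.1 ± 1.21 CPM at day 7 (0.75 ± 0.06), while Prdx4, a peroxiredoxin of the secretory pathway, was at 9.83 ± 1.64 and 19.3 ± 0.524 CPM (-0.97 ± 0.10). Txnrd1, thioredoxin reductase and an Nrf2 target, rose to 153 ± 5.26 CPM at day 14, against 70.5 ± 5.29 CPM at day 7 (1.12 ± 0.05). At day 1 Txnrd1 was at 85.4 ± 0.553 CPM, and day 14 exceeded day 1 by 0.84 ± 0.05. Sod1, the cytosolic superoxide dismutase, fell to 48.8 ± 2.11 CPM at day 14, against 80.8 ± 1.58 CPM at day 7 (-0.73 ± 0.06). Cat, catalase, was at 81.4 ± 4.62 CPM on day 1, 171 ± 9.83 on day 7 and 148 ± 11.6 on day 14.

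Among 6 genes of NADPH supply, 0 were higher and 1 lower at day 7 than at day 1, 1 was higher and 3 lower at day 14 than at day 7, and 3 were higher and 3 lower at day 14 than at day 1. The gene higher at day 14 than at day 7 was Me1, malic enzyme, at 104 ± 5.47 CPM at day 14 and 25.1 ± 0.754 CPM at day 7 (log2 fold change 2.05 ± 0.05, adjusted p = 7.52e-11). Among those lower were Idh1, cytosolic isocitrate dehydrogenase, at 53.8 ± 5.22 CPM at day 14 and 82.4 ± 3.53 CPM at day 7, and Tkt, transketolase, at 197 ± 9.81 CPM at day 14 and 272 ± 10.5 CPM at day 7. Of 8 heme and iron genes, 2 were higher and 2 lower at day 7 than at day 1, 2 were higher and 3 lower at day 14 than at day 7, and 2 were higher and 5 lower at day 14 than at day 1. Fth1, the ferritin heavy chain that stores the iron released by heme oxygenase, was at 728 ± 27.1 CPM at day 14 and 516 ± 4.18 CPM at day 1, and the biliverdin reductase gene Blvrb was at 17.0 ± 0.971 and 11 ± 0.199 CPM. The ferritin light chain gene Ftl1 did not follow Fth1. It was at 418 ± 17.7 CPM on day 1, 266 ± 21 on day 7 and 330 ± 22.6 on day 14. Slc40a1, the iron exporter ferroportin, was at 8.24 ± 0.519 CPM at day 14 and 22.5 ± 2.14 CPM at day 1. Of 15 tested genes of other detoxification enzymes and exporters, 8 were higher and 0 lower at day 7 than at day 1 (25.5% and 24% of all genes), 5 were higher and 4 lower at day 14 than at day 7 (32.5% and 35.1%), and 8 were higher and 4 lower at day 14 than at day 1 (35.5% and 38.4%). Osgin1, an oxidative stress gene, had the largest change of this list, at 46.3 ± 8.90 CPM at day 14 and 1.46 ± 0.832 CPM at day 1 (5 ± 0.41). Ephx1, epoxide hydrolase, was at 155 ± 6.56 and 53.6 ± 1.90 CPM, and the exporter gene Abcc4 at 71.1 ± 4.63 and 34.7 ± 1.68 CPM on the same days. Lower at day 14 than at day 1 were the aldo-keto reductase gene Akr1b8 (5.9 ± 1.34 and 10.2 ± 1.77 CPM, -0.79 ± 0.16), Ugdh, which makes UDP-glucuronate (58.9 ± 3.87 and 76.2 ± 5.43 CPM, -0.37 ± 0.06), and the aldo-keto reductase gene Akr1a1 (232 ± 8.25 and 287 ± 5.71 CPM, -0.31 ± 0.04).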

How the data were processed

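Each library has a column of read counts by gene, deposited as whole numbers with no normalisation (per the file headers and the values), over 24532 NCBI gene identifiers. The submitters' processing notes name mm10 and, as tools, StringTie 1.3.4d, HISAT2 2.1.0, Trimmomatic and bcl2fastq 2.20.0. How reads were counted, on which strand and with which annotation is not given in the sources used here. The libraries were made with a stranded mRNA kit, per the labels. Gene models on the opposite strand overlap Ahr, Tiparp and Gclm, and without the strand setting their reads cannot be told apart. Gm24996 in Nfe2l2 and Gm6061 in Gclm lie on the same strand, where no strand setting would separate them.

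Columns were assigned to days by header. The columns used for day 1 are headed D0, which no title has, while D7 and D14 name the other ages, so day 1 was assigned by elimination. Libraries are named by header number (4 to 6 at days 1 and 14, 1 to 3 at day 7), which cannot be matched to title numbers. Another 18 columns, of TPM and FPKM, were not used for the results, which were kept to 1 measure. Their headers, like those of the counts, match an age and not 1 library.

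Counts were tested with edgeR 4.0.16 in R 4.3.3 (TMM factors, filterByExpr, quasi-likelihood, robust, 1 model over 9 libraries with day as a factor), which left 14507 genes. The standard error is the log2 fold change divided by the root of F. CPM uses TMM-scaled library sizes; levels are mean ± SD over 3 libraries. Levels between genes are CPM per kilobase of merged exons (GENCODE M21, mm10) rather than the planned TPM. Alternatives used DESeq2 1.42.0 and limma 3.58.1. The steps were tested on simulated counts. Coordinates are from RefSeq GRCm38.p6 (mm10), matched by gene identifier for 24462 genes. The 10 genes and all lists were chosen with earlier results of these data known. Beside the 10 genes, the rule named Arnt, Keap1 and Bach1, up to 3 called genes per direction and list with the largest change at day 14 versus day 1 and at least 10 CPM, of which some are printed, and the 3 genes nearest to Ahr and to Nfe2l2. Marker genes are named beside results they move with. Arnt2, Slc7a11 and Ftl1 fall outside this rule and were added with their values known. The result of 1 gene that the rule names is not reported here.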

Additional observations from a re-analysis of the deposited data

Results flagged for a closer look

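For 3 of the 10 genes the change in the second week differed from that in the first by a test of the difference itself (edgeR, adjusted over 14507 genes, of which 51.8% passed). Nqo1 differed by -2.06 on the log2 scale (adjusted p = 4.32e-06). Gclm differed by -0.861 (adjusted p = 0.00109) and Gclc by 0.548 (adjusted p = 0.00038). The first step covers 6 days and the second 7, and day 7 enters both steps.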

How the results depend on the processing

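Each comparison was repeated under the alternatives of scaling, filter, test and libraries. Of 640 repeated values for the 10 genes, 605 kept their direction and side of the threshold, 25 passed it newly, 9 no longer passed and 1 changed sign. The sign change was Cyp1a1 at day 14 versus day 7, not called in either case, at -0.0262 without library 6 of day 14, in a range of -0.0262 to 0.843 over single libraries left out. The number of the 10 genes lower at day 7 than at day 1 was 1 rather than 0 with RLE size factors, library totals alone, DESeq2 or limma-voom, the gene being Gclc each time, and ran from 0 to 1 when single libraries were left out. With library totals alone 2 genes rather than 1 were lower at day 14 than at day 7, Nqo1 being added (-0.332, adjusted p = 0.0195). The counts over all genes stayed within 1.5 times under the alternatives run. The second step of Nfe2l2 exceeded its first past the threshold with RLE size factors, DESeq2 or without library 1 of day 7 (adjusted p = 0.046, 0.0381 and 0.0177). The longer AhR element stood in 1 window rather than 5.

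Days 1 and 14 share library numbers 4 to 6 in the headers, whereas titles give other numbers. Same-numbered libraries deviated together only weakly (correlations of 0.014, 0.01 and 0.104), so the numbers were not taken as pairs. With the number as a replicate block, fitted on those 2 days alone (14306 genes tested), 4888 genes were higher and 5282 lower at day 14. Of the 10 genes 8 were higher and 1 lower. The main fit without a block gave 5150, 5566, 7 and 1. It used all 9 libraries and 14507 genes, so the block was not the only difference. Cyp1b1 was the gene added in the block fit (0.719, adjusted p = 0.00597). A likelihood ratio test with DESeq2 for any difference over the days was not run. Few counts limit Ahrr and Cyp1a1, which had at most 24 and 42 in any library.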
